A study of Mus musculus with 8 samples.

Results

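The genes described here are a list of 50 chromatin regulators, many of them tied to neurodevelopmental disorders. The list comprises nucleosome remodelers and histone writers, erasers and readers. They were chosen by gene symbol from 55416 genes in the count table, with earlier results of these data known. All 50 were present and passed the filter on low counts. Poly(A) RNA of the cerebral cortex was sequenced in 4 libraries from mice heterozygous for the L192P substitution in Ago2 (genotype label AGO2_L192P/+, hereafter L192P) and in 4 from wild-type (WT) mice. The substitution was introduced by CRISPR editing of C57BL/6JUke zygotes and the founders were crossed to wild-type C57/Bl6 mice, so every L192P animal also kept an unedited Ago2 allele, and heterozygotes were recovered only rarely from breeding. Age and sex of the animals are not stated in the sources used here, and counts of Xist, which bear on sex, are given below. Each sample is bulk tissue, in which fewer cells of a type and less RNA per cell cannot be told apart. The comparison asked whether mutant Ago2 goes along with other transcript levels of these regulators.

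Chromatin regulators set how tightly DNA is packed on histones. Remodelers of the CHD and SWI/SNF families use ATP to move or evict nucleosomes, Trithorax-type enzymes methylate histone H3 at active promoters and enhancers, and Polycomb complexes silence developmental genes. Many of these genes are dose sensitive in people, since the loss of a single copy of genes such as CHD8, ARID1B, KMT2A, SETD5 or ADNP causes intellectual disability or autism. Argonaute 2, the protein made from Ago2, carries a miRNA to matching sites in mRNAs and lowers their output, and several chromatin regulators are textbook targets of miRNAs in neurons.

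The libraries held 20396357 to 43575900 counts, and 18627 genes were given an adjusted p by DESeq2, of which 253 (1.36%) had an adjusted p under 0.05 and are termed called. Ago2 itself averaged 2291 ± 75.1 normalized counts across L192P libraries against 2246.5 ± 130.4 across WT libraries (SD, n = 4 each, log2 fold change 0.03 with SE 0.064). Its transcript level therefore gives no check of the genotype labels, as the edit exchanged the codon of the substitution and added a silent mutation nearby. Both replicate 1 libraries stood apart: Xist was at 0.934 and 1.82 normalized counts there and at 5185 or more in the other libraries, and the summed nuclear RNAs (Malat1, Neat1, Meg3, Miat and Snhg11) were at 68406 and 67647 against 26958 to 44906. Xist is transcribed in female cells, so by this RNA both replicate 1 libraries came from males and the others from females. Sex thus differed between replicate numbers and not between genotypes of the same number. Results that rest on the replicate 1 libraries are given with and without them, and without them only libraries high in Xist are compared. The defining markers of cortical excitatory neurons (Slc17a7, Neurod6, Tbr1 and Cux2) were detected in every library.

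Since the substitution lies in a miRNA effector, matches to 7 miRNA seeds were counted in the 3′ UTR of each canonical transcript (GENCODE M39, GRCm39). The families were let-7a-5p, miR-9-5p, miR-101a-3p, miR-137-3p and miR-138-5p, which are well known in brain, and miR-92a-3p and miR-5121, whose families the study discussed as possible regulators. Sites for miR-101a-3p were the most widespread, with at least 1 exact 7-base match in 15 of 50 members (30%) against 12.1% of all tested genes with a 3′ UTR. The 3′ UTRs of the members were also longer, with a median of 1949.5 bases against 1362. For the other families the share was 18% against 15.7% (miR-138-5p), 16% against 11.7% (miR-137-3p), 16% against 11.6% (let-7a-5p), 16% against 11.2% (miR-5121), 8% against 8.06% (miR-92a-3p) and 8% against 15.5% (miR-9-5p). The mature sequences of miR-101a-3p and of miR-138-5p (RefSeq, with GRCm38.p6 as its build) are shown because Ezh2, Hdac4, Kdm5b and Kdm6b hold sites for both. Capitals mark the seed, bases 2 to 8.
miR-101a-3p: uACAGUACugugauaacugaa
miR-138-5p: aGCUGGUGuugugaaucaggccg

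Windows around sites in 4 members are given on the transcript strand, with the 7 matching bases in capitals and GRCm39 coordinates. Ezh2, the main methyltransferase of Polycomb repressive complex 2 in dividing cells, held 2 sites for miR-101a-3p and 1 for miR-138-5p within a 3′ UTR of only 402 bases. Its partner Eed held 1 miR-101a-3p site in 283 bases. Hdac4, a class IIa deacetylase, held 4 sites for miR-138-5p and 2 for miR-101a-3p in 5132 bases, and the eraser Kdm6b held 2 and 1 in 1318 bases. All 4 genes lie on the minus strand.
Ezh2, miR-101a-3p site 1 (chr6:47507400-47507426): ggaaccttgaGTACTGTgggcaattta
Ezh2, miR-101a-3p site 2 (chr6:47507345-47507371): aatttgcaaaGTACTGTaacagtaatt
Ezh2, miR-138-5p site (chr6:47507290-47507316): attgccttctCACCAGCtgcaaagtgt
Eed, miR-101a-3p site (chr7:89603977-89604003): tacattctttGTACTGTcttcctgctc
Hdac4, miR-138-5p site 1 (chr1:91860210-91860236): caagagtgggCACCAGCcactgtcccc
Kdm6b, miR-101a-3p site (chr11:69289752-69289778): agcgactcctGTACTGTaggggaagaa

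Members with a miR-101a-3p site had a median log2 fold change (L192P against WT) of 0.05 and those without a site one of 0.04, and 11 of the 15 were higher in L192P. The 8 members with a miR-5121 site were all higher, with a median of 0.06, against 0.04 for members without a site and 0.0053 for all tested genes with a site. The 4 members with a miR-9-5p site were all higher too, with a median of 0.04. Among all 50 members 70% were higher, against 50.6% of all tested genes. Medians over members with a site lay between 0.03 and 0.06 for all 7 families. Scmh1, the member that was called, had a 3′ UTR of 925 bases with 0 matches to these 7 seeds.

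As a group, the 50 genes had high counts and closely similar levels in both genotypes. Of the 50 members, 1 was called (2%, against 1.36% of all tested genes): Scmh1, which was lower in L192P, where 0.569% of tested genes were called lower. No member was called higher. An unadjusted p under 0.05 was reached by 5 members (10%), against 9.44% of all tested genes, and in 4 members (8%) the normalized counts of the genotypes did not overlap, against 5.97%. These shares were close to the background, in a list that was chosen with earlier results of these data known. For 40 of the 50 members the 95% interval of the fold change lay inside a 1.25-fold change in either direction. This was a larger share than the 43.4% of all tested genes. The exceptions were Chd1, Chd6, Kmt2e, Ezh2, Suz12, Asxl3, Scmh1, Kdm6b, Hdac4 and Adnp. The members had a median of 1415 normalized counts, against 331 over all tested genes. Counts were not divided by length here, and the median exonic length was 12086 bases in members against 6180 in tested protein-coding genes. The part of the higher counts in the narrow intervals was not tested. The median coefficient of variation of the members was 7.05% in WT and 5.50% in L192P.

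**Figure D1:**
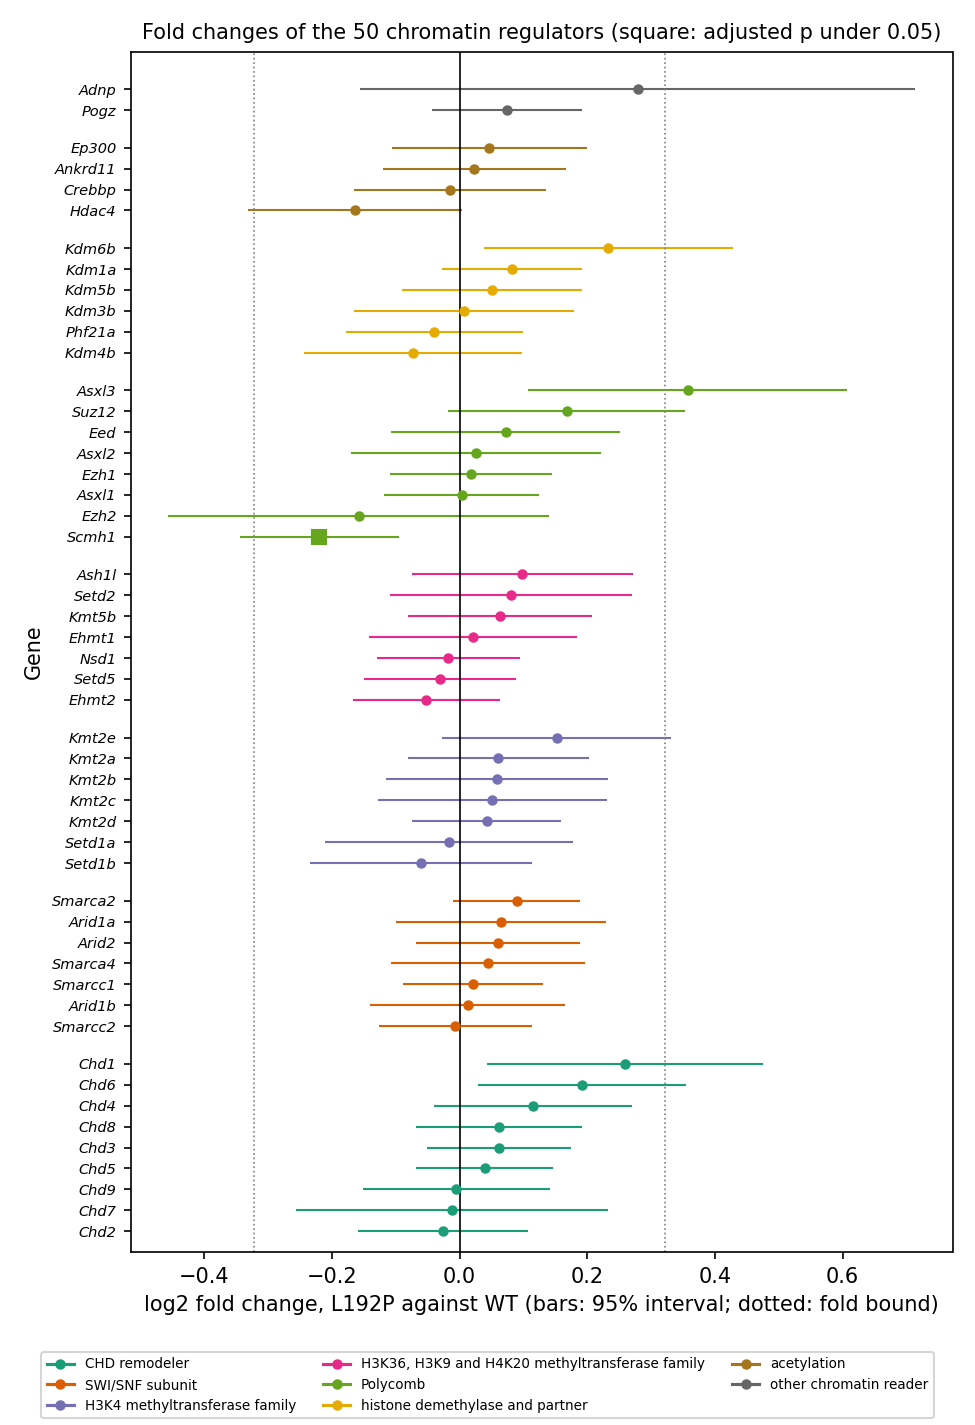
Log2 fold change of L192P against WT (horizontal axis) of each member (vertical axis), grouped and coloured by role, with bars for the 95% interval and dotted lines at a 1.25-fold change. Most points lie close to 0, Scmh1 (square) is the called member, and Adnp has the widest interval, from -0.16 to 0.71.

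Fold changes leaned slightly to one side. Of the 50 members, 35 (70%) were higher in L192P, against 50.6% of all tested genes, and the median log2 fold change was 0.04 against 0.00191. The shift was small, since 39 members differed by less than 0.1 on the log2 scale. The members are long, with a median exonic length of 12086 bases, and among the 1779 tested protein-coding genes at least that long 57.2% were higher, with a median of 0.02. With total-count size factors, which moved the median over all tested genes to 0.03, 41 members were higher. The lean differed between libraries, as described further on.

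Polycomb proteins hold developmental genes silent by methylating lysine residues of histone H3 and by compacting chromatin. Of 8 Polycomb members, 6 were higher and 2 lower, 1 was called, and the median log2 fold change was 0.02. Scmh1 encodes a subunit of Polycomb repressive complex 1 (chr4:120262412-120387384, GRCm39). Its normalized counts were 909, 899, 883 and 898 in L192P replicates 1 to 4 and 1037, 1062, 1046 and 1033 in the WT replicates. The highest L192P library was thus below the lowest WT library. The coefficients of variation were 1.19% in L192P and 1.24% in WT. Counting error alone gives a larger spread on average at such counts, so this tightness is no measure of reproducibility. The mean fell from 1044 ± 13.0 to 897 ± 10.6 (SD, n = 4 each), a log2 fold change of -0.22 (SE 0.064, DESeq2 adjusted p = 0.0445). The call lay close to the threshold. It was lost with the replicate number as a block (adjusted p = 0.0716), in edgeR (0.135) and with any single library left out (0.0743 to 0.257), while Scmh1 was lower in all 19 alternatives (log2 fold change -0.23 to -0.19).

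Asxl3, a scaffold of the Polycomb deubiquitinase complex and the gene of Bainbridge-Ropers syndrome, had the largest positive difference. Its normalized counts were 226, 280, 234 and 238 in L192P and 206, 173, 180 and 207 in WT. All L192P libraries were above all WT libraries, yet the gene was lowly expressed and the difference did not pass (log2 fold change 0.36, SE 0.128, adjusted p = 0.173). Suz12, a core subunit of Polycomb repressive complex 2, was at 1502, 1303, 1249 and 1342 in L192P and 1365, 1034, 1229 and 1184 in WT. The groups overlapped, and L192P exceeded WT within each replicate number (0.17, SE 0.095, adjusted p = 0.609). Ezh2 was at 114, 134, 109 and 113 in L192P and 128, 142, 121 and 131 in WT, which overlapped as well (-0.16, SE 0.152, adjusted p = 0.870). Its paralog Ezh1, which serves the same complex in postmitotic cells, had a log2 fold change of 0.02 and the other core subunit Eed one of 0.07. Asxl1 and Asxl2, relatives of Asxl3, had values of 0.0033 and 0.03. The core subunits of Polycomb repressive complex 2 thus had fold changes of both signs, and none was called.

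**Figure D2:**
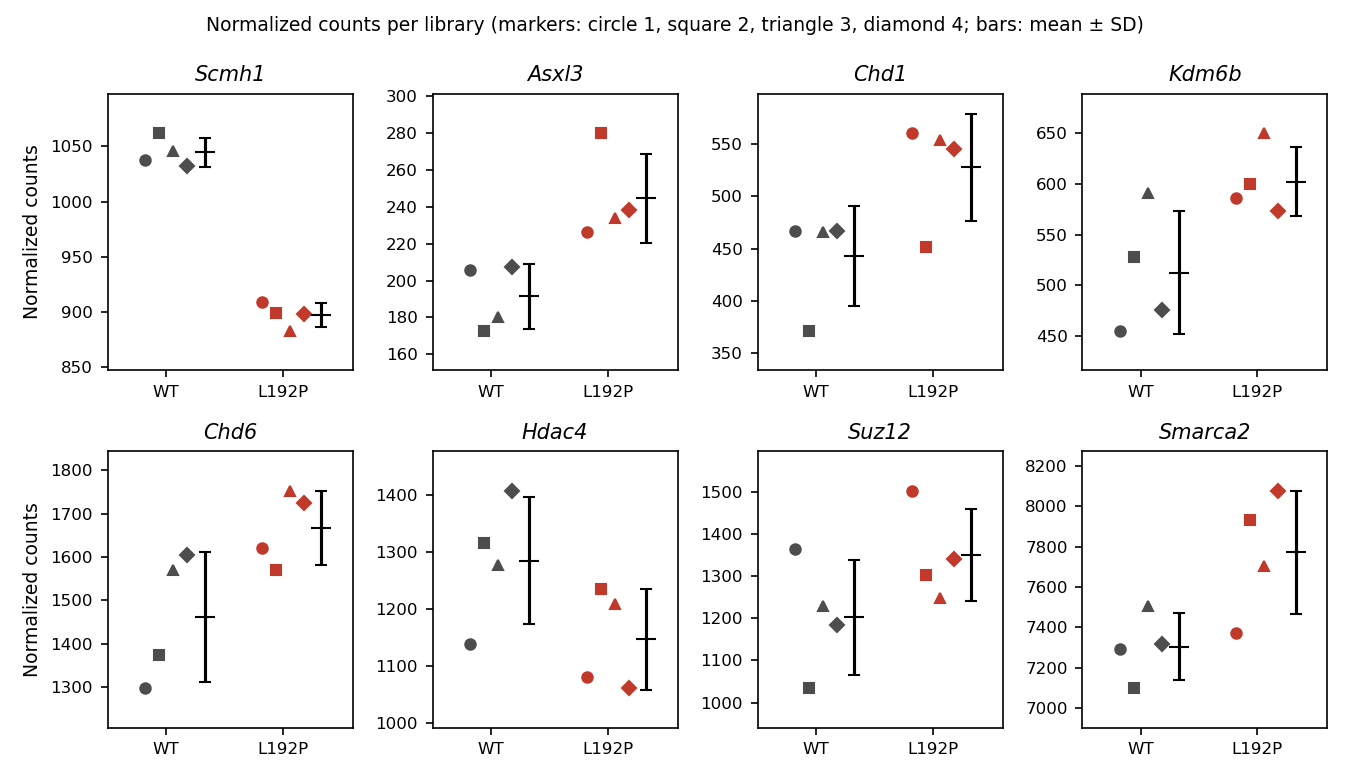
Normalized counts (vertical axis, which does not start at 0) of 8 members in each WT and L192P library, with a marker shape per replicate number and bars for mean ± SD (n = 4). Only Scmh1 and Asxl3 separate the genotypes fully, Scmh1 with all L192P libraries between 883 and 909 and all WT libraries at 1033 or above.

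CHD proteins are ATP-dependent remodelers, with Chd1 acting on transcribed genes, Chd3, Chd4 and Chd5 being alternative motors of the NuRD complex, Chd7 and Chd8 the genes of CHARGE syndrome and of a form of autism. Of 9 members 6 were higher and 3 lower, with a median log2 fold change of 0.06, and 0 were called. Chd1 was at 561, 452, 553 and 545 normalized counts in L192P and 467, 372, 466 and 467 in WT. Replicate 2 was the lowest of its group in either genotype, and the groups overlapped only through L192P replicate 2 (0.26, SE 0.110, adjusted p = 0.345). Chd6, a less studied remodeler, was at 1620, 1569, 1753 and 1725 in L192P and 1297, 1374, 1570 and 1604 in WT. L192P was higher within each replicate number, although WT replicates 3 and 4 reached the lower L192P values (0.19, SE 0.083, adjusted p = 0.360, or 0.0688 with the replicate block). The remaining CHD genes had log2 fold changes between -0.03 (Chd2) and 0.11 (Chd4), with 0.06 for both Chd3 and Chd8, 0.04 for Chd5 and -0.01 for Chd7 and Chd9.

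SWI/SNF complexes pair a motor, Smarca2 or Smarca4, with core and targeting subunits whose loss causes Coffin-Siris and related syndromes. Of 7 members 6 were higher, 0 were called and the log2 fold changes spanned only -0.01 to 0.09. The motor Smarca2 was at 7374, 7931, 7704 and 8077 normalized counts in L192P and 7294, 7097, 7504 and 7317 in WT. L192P replicate 1 lay within the WT range and the other L192P libraries above it (0.09, SE 0.051, adjusted p = 0.612). Arid2, the targeting subunit of the PBAF form, was at 973, 941, 934 and 936 in L192P and at 883, 922, 901 and 921 in WT. Its groups did not overlap, but the gap was narrow and the difference did not pass (0.06, SE 0.065, adjusted p = 0.895). The other motor Smarca4 differed by 0.04, the targeting subunits Arid1a and Arid1b by 0.07 and 0.01, and the scaffolds Smarcc1 and Smarcc2 by 0.02 and -0.01.

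The H3K4 methyltransferase family marks promoters and enhancers that are active or poised. Of 7 members 5 were higher and 0 were called, with a median log2 fold change of 0.05. The largest difference was that of Kmt2e, a divergent member without established enzymatic activity (0.15, SE 0.091, adjusted p = 0.655). Kmt2a to Kmt2d, of which Kmt2d is the Kabuki syndrome gene, lay between 0.04 and 0.06. Setd1a, a risk gene of schizophrenia, and its paralog Setd1b lay at -0.02 and -0.06. Within the writers of other lysines, 4 of 7 were higher, with a median of 0.02 and 0 called. Ash1l and Setd2, both tied to methylation of H3K36, had values of 0.10 and 0.08, while Nsd1, the Sotos syndrome gene with the same target, had -0.02. Ehmt1 and Ehmt2, which work as a pair in H3K9 methylation, had 0.02 and -0.05, the H4K20 enzyme Kmt5b had 0.06 and Setd5 had -0.03.

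Histone demethylases remove these marks. Of 6 members in the demethylase group 4 were higher and 0 were called, with a median log2 fold change of 0.03. Kdm6b, an H3K27 demethylase that opposes Polycomb, was at 586, 600, 650 and 574 normalized counts in L192P and 455, 528, 591 and 475 in WT. L192P replicates 1 and 4 lay within the WT range, below WT replicate 3, and the difference did not pass (0.23, SE 0.099, adjusted p = 0.345). Kdm1a, the H3K4 demethylase of the CoREST complex, was at 1845, 1883, 1769 and 1774 in L192P and 1713, 1719, 1699 and 1736 in WT. Its groups did not overlap, and the difference was again small (0.08, SE 0.056, adjusted p = 0.728). The CoREST reader Phf21a had -0.04, and the demethylases Kdm3b, Kdm4b and Kdm5b had 0.01, -0.07 and 0.05.

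Among the 4 members that write, erase or recruit changes in acetylation, 2 were higher, 2 lower and 0 were called. Hdac4, which shuttles between cytoplasm and nucleus with neuronal activity, was at 1082, 1236, 1210 and 1061 normalized counts in L192P and 1139, 1316, 1276 and 1407 in WT. It was lower in L192P within each replicate number, the groups overlapped, and the difference did not pass (-0.16, SE 0.086, adjusted p = 0.550). The acetyltransferases Crebbp and Ep300, mutated in Rubinstein-Taybi syndrome, had log2 fold changes of -0.01 and 0.05, and Ankrd11, the KBG syndrome gene that recruits deacetylases, had 0.02. The remaining readers were Pogz, at 0.07, and Adnp, at 0.28 with the largest SE of all members (0.222, adjusted p = 0.802). Adnp was at only 79.4, 92.2, 65.7 and 57.5 normalized counts in L192P and 73.8, 51.4, 59.7 and 59.7 in WT.

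Low counts of 2 members coincided with gene models that share their exons. In GENCODE M39, 4393 of 11529 exonic bases of Adnp (38.1%) belong also to the same-strand protein-coding gene Gm20716, which was given 0 to 3 raw counts per library. For Setd1a, 3523 of 6836 bases (51.5%) are shared with Gm49388, which had 0 counts in all libraries. Chd2 shares 2030 of 14300 bases (14.2%) with Chaserr, a noncoding RNA. On the opposite strand, 34 members share some exonic bases with another gene, over 10% of their length in 2 cases. How reads in shared exons were assigned is not given in the sources used here, and the levels of Adnp, Setd1a and Chd2 are therefore uncertain.

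To compare levels between genes, normalized counts were divided by the length of the canonical transcript in kilobases. Per kilobase, the most abundant members over all libraries were Chd3 (1965), Smarcc2 (1658), Ehmt2 (1209), Smarca2 (1009) and Chd4 (746), and the least abundant were Adnp (11.0), Asxl3 (19.2), Chd7 (34.2), Ezh2 (40.2) and Setd1a (54.3). The places of Adnp and Setd1a are uncertain because of their shared exons. In several paralog sets the level was thus carried mostly by a single gene. Ezh1 exceeded Ezh2 by 10.7-fold, Ehmt2 exceeded Ehmt1 by 9.26-fold, Smarcc2 exceeded Smarcc1 by 3.04-fold and Chd3 exceeded Chd4 by 2.64-fold (geometric means over 8 libraries). Crebbp and Ep300 were almost level (1.09-fold), whereas Arid1a was 1.98-fold above Arid1b. For Smarca2 against Smarca4 the order depended on the length used, with a ratio of 1.49 by canonical transcript and 0.637 by all exons, and likewise for Chd5 against Chd4, with 0.951 and 1.28. Among the H3K4 family, Kmt2e was highest per kilobase (323), and Kmt2a to Kmt2d lay between 77.8 and 116.

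The balance between paralogs was compared between genotypes over 8 pairs, since a shift could occur without a change in either gene alone. The Ezh1/Ezh2 ratio per kilobase was 11.98, 10.03, 11.73 and 11.71 in L192P and 9.541, 9.775, 11.28 and 9.702 in WT. The groups overlapped, and the log2 difference of 0.17 did not pass (2-sided exact permutation test, p = 0.0571, adjusted p = 0.457 over the 8 pairs). The ratio was higher in L192P within each of the 4 same-numbered pairs of libraries, for which a paired exact test gave p = 0.125 (adjusted p = 0.5), the smallest p that 4 pairs allow. The other 7 ratios differed by -0.08 to 0.05 on the log2 scale, with adjusted p of 0.620 or more.

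**Figure D3:**
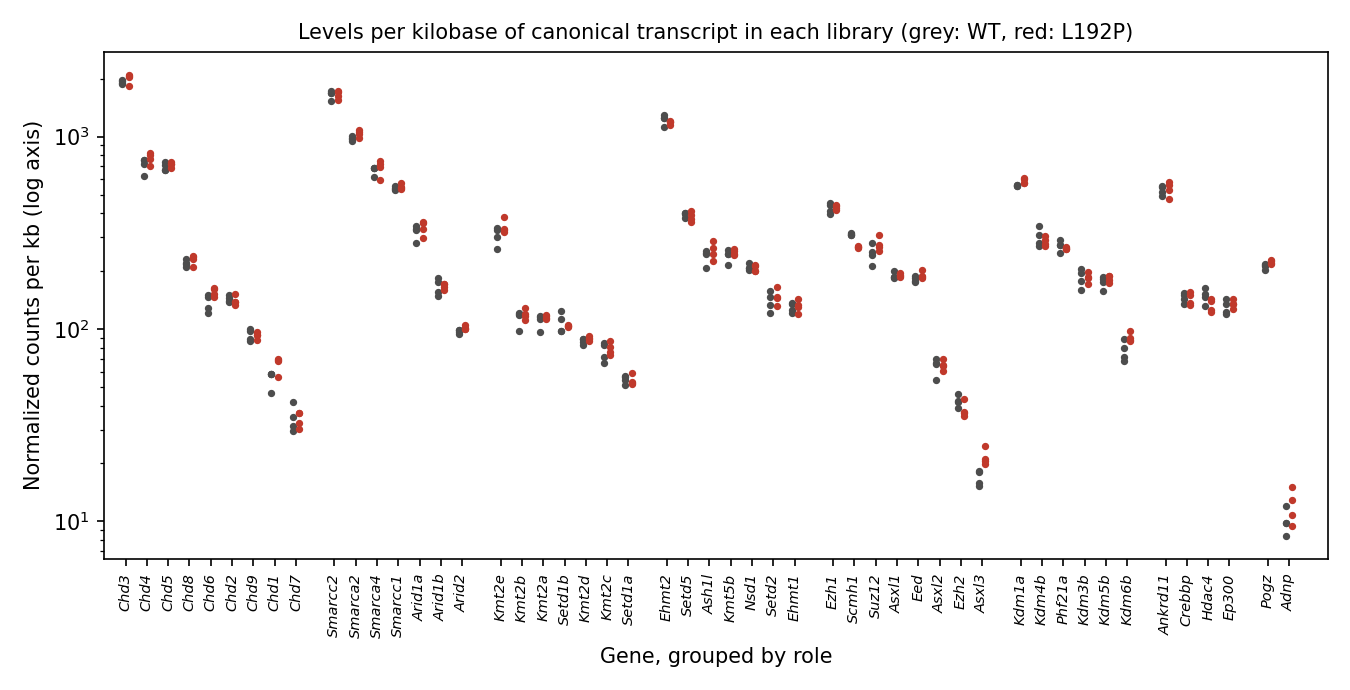
Normalized counts per kilobase of canonical transcript (vertical log axis) of each member in every WT (grey) and L192P (red) library, grouped by role. Levels span from about that of Adnp (11.0 on average) to that of Chd3 (1965), and the genotypes lie close together at each gene. The level of Adnp is uncertain because of exons shared with another gene.

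Comparison by replicate number showed that the lean of the group was uneven. L192P exceeded WT for 43 of 50 members in replicate 1, 35 in replicate 2, 26 in replicate 3 and 25 in replicate 4, with median log2 differences of 0.10, 0.05, 0.02 and -0.0016. Over all tested genes the share was between 49.9% and 51.0% in each of these pairs. WT replicate 1 was the lowest of the WT libraries for 28 of 50 members, with a median deviation of -0.08 on the log2 scale from the gene's mean, and WT replicate 4 was the highest for 22. Without WT replicate 1, 29 members were higher in L192P and the median log2 fold change was 0.0072. Without both replicate 1 libraries, 28 were higher and the median was 0.02. Without WT replicate 2, 31 were higher and the median was also 0.02. The lean was thus smaller without either of these WT libraries. WT replicate 1 was also a library with low Xist, high nuclear RNA and low sums of astrocyte, oligodendrocyte, microglia and endothelium markers. L192P replicate 1 shared all of these features, but its median deviation was 0.0059. Relative to the mean of the other libraries of its genotype, replicate 1 was lower for 41 members in WT and 25 in L192P. The part of these features in the result was not tested.

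**Figure D4:**
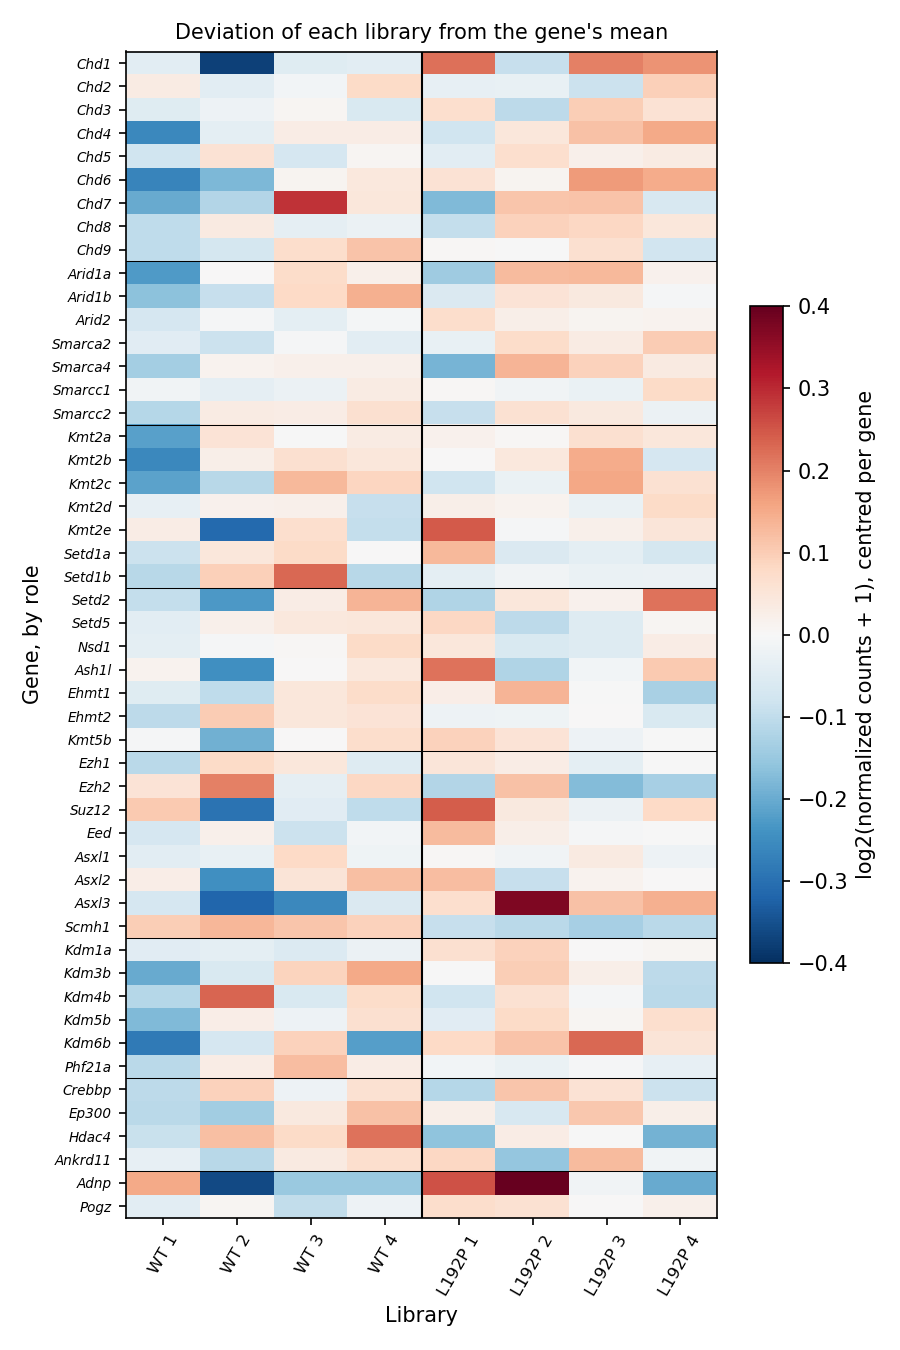
Deviation of log2(normalized counts + 1) from each gene's mean (colour) for the 50 members (rows, by role) in 4 WT and 4 L192P libraries (columns). WT 1 is blue for most rows, with a median deviation of -0.08, and Scmh1 changes colour at the line between the genotypes.

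Some members kept 1 direction in all 4 same-numbered pairs. These were 14 members that were higher in L192P (Chd1, Chd4, Chd5, Chd6, Chd8, Arid2, Smarca2, Suz12, Eed, Asxl3, Kdm1a, Kdm5b, Kdm6b and Pogz) and 3 that were lower (Ezh2, Scmh1 and Hdac4), or 34% of the members against 23.8% of all tested genes. When the replicate number was added to the model as a block, 533 of 12536 tested genes were called (4.25%) but 0 of the 49 members that were given an adjusted p, and 9 members had an unadjusted p under 0.05.

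The other subunits and enzymes of the same complexes gave a similar picture. Of 129 partner genes 128 were tested, 69 (53.9%) were higher in L192P with a median log2 fold change of 0.01, and 1 was called (0.781%). This was Setd7, a lysine monomethyltransferase, which fell from 4422 ± 283.9 normalized counts (WT) to 3738 ± 174.7 (L192P; n = 4 each), a log2 fold change of -0.24 (SE 0.065, DESeq2 adjusted p = 0.0229). All L192P libraries were below all WT libraries. The call was kept with the replicate block (adjusted p = 0.00017) and lost in edgeR (0.140), limma-voom (0.145), with total-count size factors (0.0524) and when L192P replicates 2 and 3 or WT replicates 3 and 4 were left out, each in turn (0.108 to 0.200). With that block, which called 4.25% of all tested genes, 5 of the 129 partner genes were called. Besides Setd7 these were Cbx6, a Polycomb reader (-0.20, adjusted p = 0.000333), Cdk2ap1, a NuRD subunit (-0.25, 0.0330), Pbrm1, the bromodomain subunit of PBAF (0.25, 0.0134), and Smarca1, an ISWI motor (0.29, 0.0417). Without both replicate 1 libraries, the blocked model no longer called Cdk2ap1 (0.141) or Pbrm1 (0.0516), whereas Cbx6 (0.000124), Smarca1 (0.0139) and Setd7 (0.000339) were called. Psip1, of the COMPASS list, was called there (0.19, adjusted p = 0.0483) but not with the block over all libraries (0.233). That model called 4 partner genes and 4.13% of all tested genes. Within the partner lists 0 to 1 genes were called in the fit without the block. In the list of ISWI, INO80 and other remodelers 11 of 12 genes were higher, with a median of 0.13, but 0 were called. The lists of SWI/SNF (9 of 23 higher), NuRD (8 of 12), COMPASS (6 of 12) and Polycomb partners (15 of 28) had medians between -0.02 and 0.01. Among the CoREST partners 2 of 6 were higher (median -0.09), among acetyltransferases and deacetylases 9 of 15 (0.01), among other methyltransferases 3 of 10 (-0.03) and among other demethylases 6 of 10 (0.03).

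Composition of the tissue samples was compared by 12 lists of 4 or 5 marker genes each. The summed markers of cortical excitatory neurons lay between 35081 and 39523 normalized counts for L192P and between 39932 and 41725 for WT, without overlap, with 0 of 4 genes called. The summed markers of progenitors and immature neurons (Mki67, Top2a, Sox11, Sox4 and Dcx) lay between 2298 and 2589 for L192P and between 2094 and 2241 for WT, again without overlap and with 0 of 5 called. The sums of the other 10 lists overlapped between genotypes, and Gad2, of the interneuron list, was the only marker called. Among these lists, the thalamus sum was 4734 and 5504 in L192P replicates 1 and 3, against 2821 to 3526 in the other libraries. Scmh1, Asxl3, Arid2 and Kdm1a separated the genotypes as well, and the part of cell composition in their differences was not tested. Both replicate 1 libraries had the lowest sums for astrocytes (13335 in L192P and 14704 in WT, against 18725 or more in the others). The same held for oligodendrocytes (78057 and 79941, against 90785 or more) and microglia (4102 and 4274, against 5170 or more). It held too for endothelium (303 and 380, against 580 or more) and for no other list.

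The members shared promoter features that the selection did not use. RefSeq promoters (GRCm38.p6, 250 bases before to 50 after the start) matched 36 members. Their median ratio of observed to expected CG dinucleotides was 0.876, against 0.727 over the promoters of tested genes, and it exceeded 0.6 in 34 of them (94.4% against 65.2%). The median GC content was 67.5% against 60.3%. The genes lie on 19 chromosomes, and 49 of 50 have a human homolog named in the count table.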

How the data were processed

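Poly(A) RNA of mouse cerebral cortex was sequenced as stranded mRNA libraries in 4 libraries from L192P mice and 4 from WT mice. The authors aligned reads with STAR to GRCm39 and counted them per gene with featureCounts, and the deposited count is the unit of all tests. Per the submitters' processing notes the versions were STAR 2.7.9a, featureCounts 1.5.1 and DESeq2 1.40.2. The strand setting and the annotation release are not given in the sources used here. The authors also deposited a normalized signal, counts divided by DESeq2 size factors, which differed from the values recomputed here by 5.2e-10 at most. Libraries held 20396357 to 43575900 counts, so counting error is small for most members and larger for Adnp, Ezh2 and Asxl3.

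DESeq2 1.42.0 in R 4.3.3 was fitted to the whole table with a genotype term alone, size factors by the median of ratios, independent filtering at 0.05 and no shrinkage, and p-values were adjusted by the Benjamini-Hochberg method over all tested genes. Normalized counts are counts divided by size factors. A 95% interval is the log2 fold change ± 1.96 SE. Ratios of paralogs were compared by exact permutation tests. The alternatives were edgeR 4.0.16, limma 3.58.1 (voom), other size factors and filters, 1 surrogate variable from sva 3.50.0, the replicate number as a block and leaving out libraries. The block without both replicate 1 libraries and a paired exact test of the ratios were added after seeing the data. The programs were tested on simulated counts with known changes.

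The 50 members, the partner and marker lists and the miRNA families were chosen with earlier results of these data known. A marker gene of the excitatory neuron list is not reported here and was left out of its sum. Full values were given for members with an adjusted p under 0.05 or with an unadjusted p under 0.05 and groups without overlap, filled up to 8 by the smallest p. Arid2, Kdm1a, Ezh2 and Adnp were added after their values were seen, the first pair because their groups did not overlap. Partner genes were named by an adjusted p under 0.05, and those called only with the block were also named after their values were seen.

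The labels do not say that replicates came from separate animals, and the p-values measure the spread between these samples. No pair of libraries agreed within sampling noise (chi-square per degree of freedom 5.52 to 22.6, over genes with at least 10 counts). What the replicate numbers in the labels stand for is not stated there. Deviations from the group mean correlated between same-numbered libraries at 0.233 to 0.628 and between the 12 other pairs at -0.375 to 0.144 (13422 genes with a mean of at least 50), and the numbers were treated as pairing the libraries. Gene positions, exon overlaps and 3′ UTRs came from GENCODE M39 on GRCm39, in which 98.8% of identifiers were found. Seed sites were exact matches of 7 bases.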

Additional observations from a re-analysis of the deposited data

Results flagged for a closer look

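In 6 of the 100 groups formed by 50 members and 2 genotypes, 1 library lay far from the other 3 (beyond the critical value of Dixon's test at the 95% level), where chance gives about 1 in 20. Chd1 was low in replicate 2 of both genotypes, at 451.8 normalized counts in L192P against 545.0 to 560.5 in the other libraries and at 371.7 in WT against 466.0 to 467.1. In WT replicate 1, Smarca4 was at 3970 against 4403 to 4425, and Kmt2b was at 849.6 against 1031 to 1060. Setd1a was high in L192P replicate 1, at 384.9 against 335.4 to 342.4. Ash1l was low in WT replicate 2, at 2419 against 2872 to 2954.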

How the results depend on the processing

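Of the 19 alternatives, 4 kept Scmh1 as the called member (TMM size factors, the filter of 10 counts in 4 libraries, the Cook filter off and 1 surrogate variable). The count of called members, all lower in L192P, was 0 with total-count size factors, edgeR, limma-voom, independent filtering off, the replicate block, the exclusion of both replicate 1 libraries, the same with the replicate block, and each library left out (range 0 to 0). The unadjusted p of Scmh1 stayed between 0.000414 and 0.0159. Its log2 fold change was -0.23 to -0.19 and its adjusted p 0.0345 to 0.257. Every alternative gave an unadjusted p under 0.05 for 3 to 9 members. Arid2, Asxl3, Chd1, Chd6, Hdac4, Kdm1a, Kdm6b, Smarca2 and Suz12 were called in 0 of 19 alternatives and kept their direction, and the block changed the call of no member but Scmh1. The count of members higher in L192P was 27 to 41, and the median log2 fold change was 0.00717 to 0.0613 with 1 library left out, lowest without WT replicate 1 and next lowest (0.0183) without WT replicate 2. Called partner genes were 0 with total-count size factors, edgeR and limma-voom, 3 with 1 surrogate variable, 3 without both replicate 1 libraries, 5 with the replicate block (pairing the libraries by number), 4 with the replicate block without both replicate 1 libraries, and 0 to 4 with 1 library left out. Over all tested genes 253 were called (1.36%), against 53 in edgeR, 45 in limma-voom and 112 to 496 with 1 library left out. The count was 533 with the replicate block (4.25%) and 461 with 1 surrogate variable (2.85%). Without both replicate 1 libraries it was 500 (3.46%), or 572 with the block (4.13%). The causes were not tested. SEs were 0.051 to 0.222, and for 10 members the 95% interval did not lie inside a 1.25-fold change.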
